A study of Mus musculus with 8 samples.

Results

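The subunit genes of the mitochondrial respiratory chain and of ATP synthase were compared in growing mouse molars with and without conditional deletion of Runx2, which encodes a master transcription factor of osteoblasts. Genes were taken by symbol: the mitochondrially encoded Nd, Co, Cytb and Atp genes, and the nuclear Nduf, Sdh, Uqcr, Cox4 to Cox8 and Atp5 genes. This gave 99 of the 17631 genes in the table, 13 of them encoded by mitochondrial DNA and 86 by nuclear DNA. The mutant mice were Gli1-CreERT2;Runx2fl/fl and the control mice Runx2fl/fl, with 4 libraries in each group. All were C57BL/6 mice at postnatal day 7.5 (PN7.5) injected intraperitoneally with tamoxifen in corn oil at PN3.5 (1.5 mg per 10 g of body weight), and both groups carried the floxed Runx2 alleles. RNA was taken from the apical portion of the lower first molars, where the root grows. The recombinase is driven from Gli1 and is carried by the mutant group alone, so that the driver's own effects and those of losing Runx2 cannot be told apart, and the tissue also holds cells without recombinase. The labels do not say whether a library is 1 animal, so p-values reflect only how far these libraries vary, and that variation could be technical.

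The values were the authors' group means of normalised signal, on a linear scale. The table gives no value, standard deviation or depth for single libraries, so that no spread between libraries can be stated and the precision of each mean is known only through the authors' p-value. Adjusted p below is the authors' false discovery rate over all 17631 genes in their deposited table, and a gene was counted as called at an adjusted p under 0.05. Log2 ratios were computed as mutant over control from the deposited ratio. Whether the means are per length is not stated, so the means of each gene are compared between groups. Sums over genes, shares of the total and comparisons across genes or with copies depend on this unstated scale. Runx2 had a mean of 65.1 in mutant and 105.5 in control molars in the authors' deposited table (adjusted p = 0.0646), and Gli1 19.9 in mutant and 38.8 in control molars (adjusted p = 0.0228). In bulk tissue, fewer cells of a type and less RNA per cell cannot be told apart.

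The respiratory chain passes electrons from NADH through complex I, or from succinate through complex II, to ubiquinone, then through complex III and cytochrome c to oxygen at complex IV. Complexes I, III and IV pump protons across the inner mitochondrial membrane, and ATP synthase, or complex V, lets them return to make ATP. Mitochondrial DNA encodes a few hydrophobic core subunits of complexes I, III, IV and V and its own rRNAs and tRNAs. All subunits of complex II and most of the others are made from nuclear genes and imported, so that assembly needs products of both genomes. The mitochondrial strands are copied into long precursors that are cut into mature RNAs, mostly at the tRNAs between genes.

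The 2 genomes stood on opposite sides of the control level. All 13 mitochondrially encoded genes had higher means in mutant than in control molars, with a median log2 ratio of 0.61 and a range from 0.29 to 2.08, although this median became 0.17 with 11 of 13 higher when a trend on GC content and transcript length was subtracted. Of the 86 nuclear genes, 73 had lower and 13 higher means, with a median log2 ratio of -0.13, although this median became 0.00 with 42 genes lower when means were divided by their sum over all genes. The median over all 17631 genes was 0.00, and 49.4% of them had a lower mean in the mutant. No member was called in either direction, where 0.788% of all genes were called. At an unadjusted p under 0.05, 10 of the 13 mitochondrial genes were higher in the mutant, against 9.89% of all genes. At the same limit 29 of the 86 nuclear genes, or 33.7%, were lower, against 9.4% of all genes, and no nuclear member was higher. With the GC and length trend subtracted, the count was 1 of the 13 mitochondrial genes (mt-Nd4l), against 6.46% of all genes higher, and 14 of the 86 nuclear genes, against 6.35% of all genes lower. The unadjusted counts describe the members' place among all genes. They are not calls, since none survived adjustment, and no test of the difference between the 2 sets of genes can be made without values per library.

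**Figure D1:**
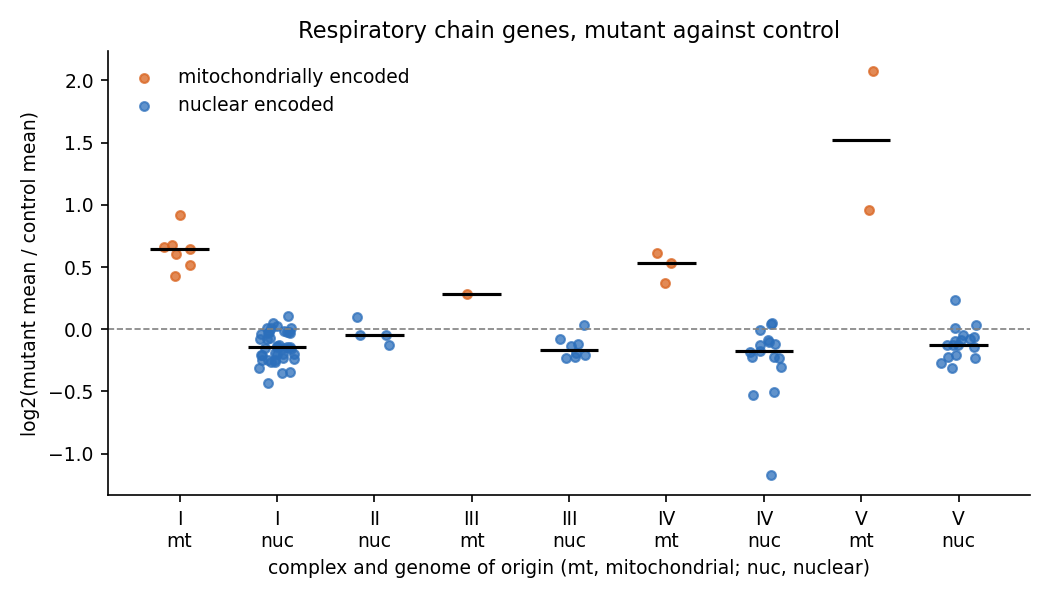
Log2 ratio of the mutant over the control mean for each of the 99 genes, by complex (I to V) and genome of origin; each point is 1 gene and each black line the median of its set. All 13 mitochondrial genes lie above 0 (11 of 13 with the GC and length trend subtracted), while the nuclear medians run from -0.18 in complex IV to -0.05 in complex II; with means divided by their sum over all genes the nuclear median of all complexes is 0.00.

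Summed over genes, the mitochondrially encoded subunits had 33807 in mutant and 23557 in control molars. They made up 3.54% of the mutant total and 2.24% of the control total, and their log2 ratio was 0.52. Rows for nuclear copies of these genes, described below, are not in this sum, so the shares depend on how shared reads were counted, which is not given. The nuclear subunits summed to 6496 in mutant and 7117 in control molars, a log2 ratio of -0.13, but made up nearly the same share of both totals, 0.680% for the mutant and 0.677% for the control. The sum over the whole table in the mutant was 0.909 times that in the control. The enamel matrix gene Amelx alone made up 11.7% of the mutant total and 16.7% of the control total. Dividing by the sums raised every log2 ratio by 0.14, whereas leaving the 10 genes with the highest means out of the sums raised it by 0.01 and left 72 of the 86 nuclear genes lower. The direction of the nuclear genes thus depends on whether a few very abundant genes enter the scale, and that of the mitochondrial genes did not, with all 13 higher under each of these scalings.

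**Figure D2:**
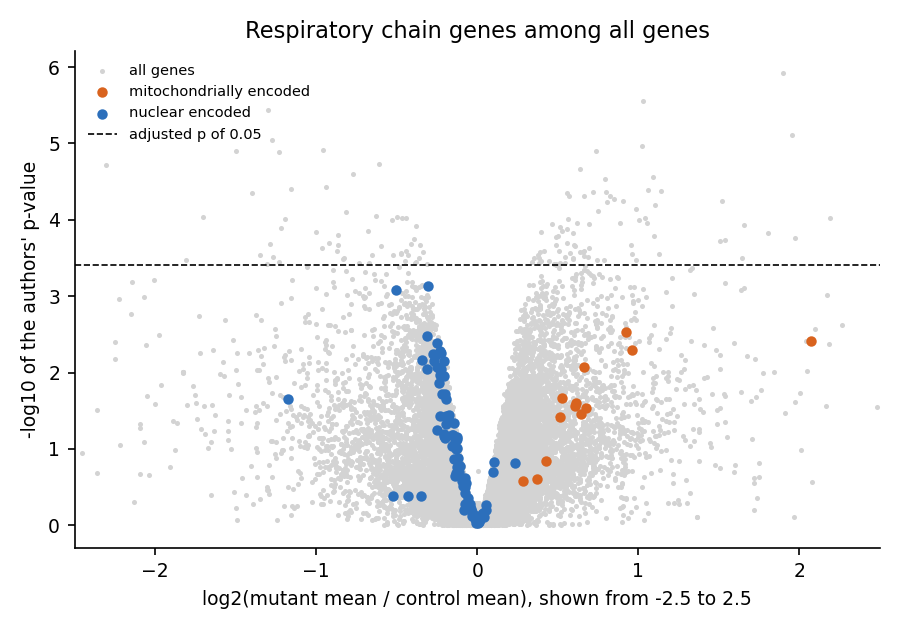
The authors' p-value on a -log10 scale against the log2 ratio of the mutant over the control mean, for all genes (grey; those beyond -2.5 or 2.5 are not drawn), the 13 mitochondrial and the 86 nuclear members. Points above the dashed line pass an adjusted p of 0.05, and none of the 99 members does; Cox7a2l and Cox6b2 come nearest to it, at adjusted p-values of 0.0646 and 0.0661.

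Complex I, the NADH dehydrogenase, takes 7 subunits from mitochondrial DNA, and these form the core of its membrane arm, where protons are pumped. mt-Nd3 (chrM:9459-9806) had 247.7 in mutant and 130.8 in control molars in the authors' deposited table (log2 ratio 0.92, adjusted p = 0.0922), the lowest adjusted p among the mitochondrial genes. The mt-Nd4l mean was 240.5 in mutant and 152 in control molars by the authors' deposited table (log2 ratio 0.66, adjusted p = 0.133). For mt-Nd4 the means were 3045 in mutant and 1909.6 in control molars in the authors' deposited table (log2 ratio 0.67). For mt-Nd2 they were 1746 in mutant and 1116 in control molars in the authors' deposited table (log2 ratio 0.65). These 4 genes thus had means from 1.56 to 1.89 times the control. The other members of the arm lay closer to the control. For mt-Nd6, the 1 subunit gene on the opposite strand, means were 858.3 in mutant and 563.5 in control molars by the authors' deposited table (log2 ratio 0.61). For mt-Nd1 they were 3121 in mutant and 2181.7 in control molars in the authors' deposited table (log2 ratio 0.52). The mt-Nd5 mean was 2791 in mutant and 2079.6 in control molars in the authors' deposited table (log2 ratio 0.42, adjusted p = 0.412). With the GC and length trend subtracted, mt-Nd5 and mt-Nd6 turned, to log2 ratios of -0.03 and -0.05.

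Complexes III and IV hold part of their redox centres in mitochondrially encoded proteins. Cytochrome b, from mt-Cytb, carries electrons within complex III, and its mean was 4917 in mutant and 4033 in control molars in the authors' deposited table (log2 ratio 0.29, adjusted p = 0.541), the ratio nearest to 0 among the 13. The catalytic subunit of cytochrome c oxidase, mt-Co1, had 8831 in mutant and 6815 in control molars by the authors' deposited table (log2 ratio 0.37, adjusted p = 0.529). Its partner mt-Co2, which receives electrons from cytochrome c, had 1803 in mutant and 1179.6 in control molars in the authors' deposited table (log2 ratio 0.61, adjusted p = 0.197). The third mitochondrial subunit of the oxidase, mt-Co3, had 2222 in mutant and 1539 in control molars in the authors' deposited table (log2 ratio 0.53, adjusted p = 0.187). Of the 13 genes, mt-Cytb and mt-Co1 had the lowest ratios.

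ATP synthase takes 2 membrane subunits from mitochondrial DNA, and these had the 2 greatest ratios of all members. The proton channel subunit mt-Atp6 (chrM:7927-8607) had 3294 in mutant and 1692 in control molars in the authors' deposited table (log2 ratio 0.96, adjusted p = 0.111). The small subunit mt-Atp8 had 691.9 in mutant and 164.1 in control molars by the authors' deposited table (log2 ratio 2.08, adjusted p = 0.102), a 4.22-fold difference that did not pass the threshold. The 2 genes overlap by 43 bases on the same strand, so that a read in the shared stretch belongs to both. The mt-Atp8 sequence of the GENCODE M21 transcript (GRCm38) is shown because it carries the greatest ratio and because the overlap takes 43 of its 204 bases. Capitals mark the bases shared with the start of mt-Atp6.
mt-Atp8 (chrM:7766-7969, plus strand): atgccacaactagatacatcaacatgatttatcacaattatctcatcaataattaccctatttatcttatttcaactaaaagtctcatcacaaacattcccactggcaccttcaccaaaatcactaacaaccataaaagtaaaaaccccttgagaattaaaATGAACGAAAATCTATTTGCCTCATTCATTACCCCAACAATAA

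Several mitochondrial genes have near-identical copies in nuclear DNA, and reads cannot be assigned between identical sequences. Annotated transcripts were searched for copies with at least 98% identity over at least 90% of the copy. Of the 13 mitochondrial genes 7 had one with a row in the table, and all 7 copies are unprocessed pseudogenes on chromosome 1 (GRCm38). Gm28437, identical to mt-Co3 over 783 bases, had 2221 in mutant and 1539 in control molars in the authors' deposited table; its log2 ratio of 0.53 was that of mt-Co3. Gm28661, identical to mt-Co2 over 681 bases, had 1809 in mutant and 1237 in control molars in the authors' deposited table. Gm10925, identical to mt-Atp6 over 678 bases, had 1479 in mutant and 1104 in control molars in the authors' deposited table. The values of these copies were thus of the same order as those of the mitochondrial genes, and how the authors' counting divided shared reads is not given in the sources used here.

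A single base separated mt-Nd3 from its copy Gm28438 over 345 bases. It is T3C, counted from the first base of the annotated transcript, with the base of mt-Nd3 first. The first bases of both are shown, 5′ to 3′ on the coding strand from GENCODE M21, with that base in capitals, since they show how little distinguishes the 2 sources of reads.
mt-Nd3 (chrM:9459-9491, plus strand): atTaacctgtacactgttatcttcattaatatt
Gm28438 (chr1:24613087-24613119, minus strand): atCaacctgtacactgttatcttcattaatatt

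Gm28438 had 331.3 in mutant and 180.7 in control molars in the authors' deposited table (log2 ratio 0.87), and Gm10222, identical to mt-Nd4l over 294 bases, 307.3 in mutant and 182 in control molars (log2 ratio 0.76). The remaining copies behaved otherwise. Gm28439, identical to 876 bases of mt-Nd4, had 3.86 in mutant and 0.113 in control molars by the authors' deposited table, a ratio of 34.3 that was the greatest of all 17631 genes and was called (adjusted p = 0.0430). Gm29216, which differs from mt-Co1 at 1 of 483 bases, had 0.433 in mutant and 4.12 in control molars in the authors' deposited table (adjusted p = 0.352). Summing each gene with its copy gave log2 ratios of 0.77 for mt-Atp6, 0.58 for mt-Co2, 0.53 for mt-Co3, 0.89 for mt-Nd3 and 0.71 for mt-Nd4l. The sum of mt-Atp8, mt-Atp6 and Gm10925 was 5465 in mutant and 2960.4 in control molars, a log2 ratio of 0.88. For mt-Atp8 itself no copy passed the search, which covered annotated transcripts only. It follows mt-Co2 and runs into mt-Atp6, whose copies stand at chr1:24614885-24615565 and chr1:24613974-24614651. The unannotated stretch between these copies was not searched, so shared reads are possible for mt-Atp8 too. The 5 mitochondrial genes with neither a copy passing the search nor the mt-Atp8 overlap (mt-Nd1, mt-Nd2, mt-Nd5, mt-Nd6 and mt-Cytb) were all higher, with a median log2 ratio of 0.52 against 0.66 for the 7 with a copy.

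**Figure D3:**
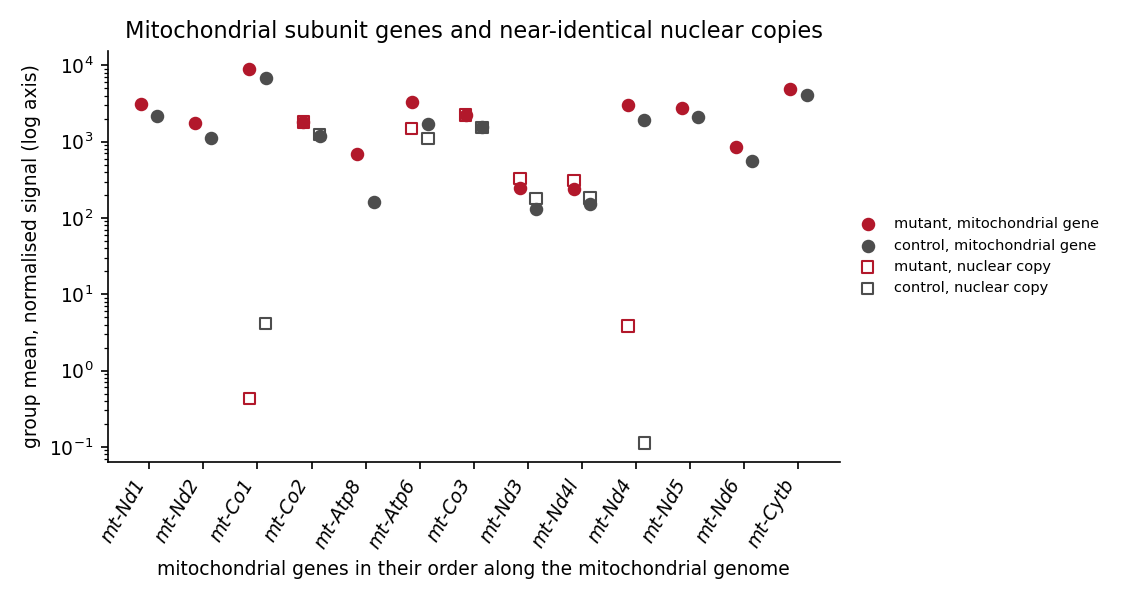
Group means of normalised signal (log axis) for the 13 mitochondrial subunit genes in their order along the mitochondrial genome, in mutant and control molars, with the nuclear copies of 7 of them as open squares. Copies of mt-Co2, mt-Atp6, mt-Co3, mt-Nd3 and mt-Nd4l lie near their genes, while those of mt-Co1 and mt-Nd4 lie below 5; mt-Atp8 shows the widest gap between groups, 691.9 in mutant and 164.1 in control molars in the authors' deposited table.

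The ratio of the mitochondrial genes went with their control mean, length and base composition. Across the 13 genes the log2 ratio had a Spearman rho of -0.71 with the log2 control mean, which itself enters the ratio, of -0.69 with log2 length and of -0.63 with GC content. Without mt-Atp8 these were -0.68, -0.60 and -0.52. These genes share libraries and, but for mt-Nd6, a precursor RNA, so the values are a description. The 6 genes under 700 bases had a median log2 ratio of 0.79, and the 7 longer ones 0.52. Over all genes of the table the log2 ratio also went with GC content. Protein-coding genes in the GC-poorest eighth, at a median GC of 41.2%, had a median log2 ratio of 0.20, and those in the GC-richest eighth, at 59.2%, -0.13. The mitochondrial genes span 31.9% to 41.1% GC, and 6.17% of all genes lie below the highest of them. After a smooth trend on GC content and length fitted over 17561 genes was subtracted, the median log2 ratio of the mitochondrial genes was 0.17 with 11 of 13 above 0, and that of the nuclear genes -0.06 with 60 of 86 below 0. The trend alone was 0.47 at the median mitochondrial gene and -0.07 at the median nuclear gene. Its part in the result was not tested.

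**Figure D4:**
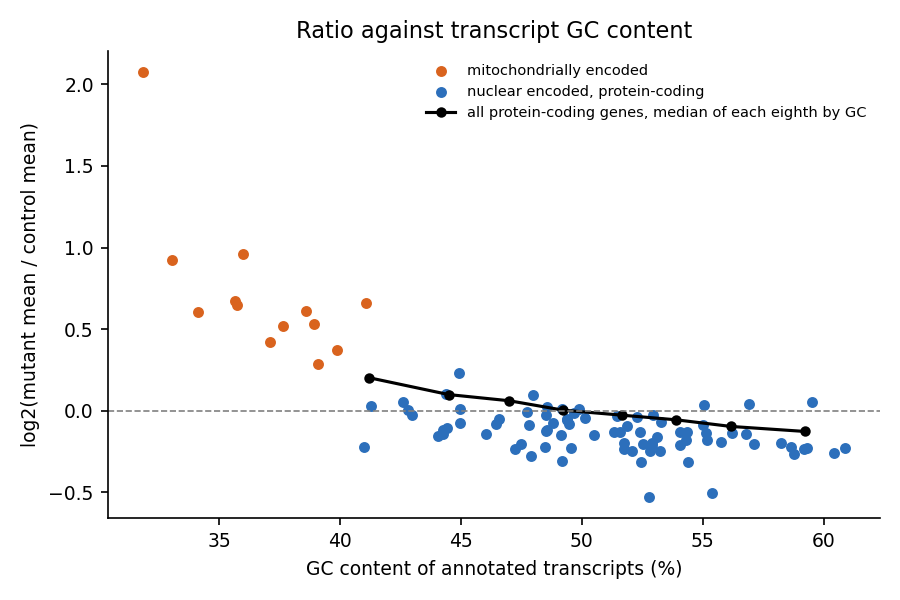
Log2 ratio of the mutant over the control mean against the GC content of annotated transcripts for the mitochondrial and the nuclear protein-coding members; the black line joins medians of all protein-coding genes in eighths by GC content. The line runs from 0.20 at 41.2% GC to -0.13 at 59.2% GC, and the mitochondrial genes lie to the left of most other genes, between 31.9% and 41.1% GC.

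The 2 mitochondrial rRNAs, which are not subunit genes but come from the same strand, also had higher means. mt-Rnr1 had 184.9 in mutant and 137.4 in control molars by the authors' deposited table (log2 ratio 0.43, adjusted p = 0.443), and mt-Rnr2 had 548.9 in mutant and 452.1 in control molars (log2 ratio 0.28, adjusted p = 0.724). Neither passed the threshold. With the trend on GC content and length subtracted, their log2 ratios were -0.11 and -0.34, so that their direction turned.

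Nuclear genes of complex I numbered 41, of which 35 had lower and 6 higher means in the mutant (median log2 ratio -0.14, but -0.0044 with means divided by their sum and -0.06 with the GC and length trend subtracted). Ndufb7, an accessory subunit of the membrane arm, had 41.1 in mutant and 51.0 in control molars in the authors' deposited table (log2 ratio -0.31, adjusted p = 0.0965). Ndufv3, an accessory subunit of the NADH-oxidising module, had 42.6 in mutant and 50.6 in control molars in the authors' deposited table (log2 ratio -0.25, adjusted p = 0.104). Ndufa13, an accessory subunit needed for assembly, had 83.2 in mutant and 99.7 in control molars by the authors' deposited table (log2 ratio -0.26, adjusted p = 0.117). Ndufb7 had the lowest ratio among the protein-coding nuclear genes of the complex, and its mutant mean was 0.805 times the control mean. The 7 nuclear core subunits, which form the redox arm, had a median log2 ratio of -0.14. The 30 other protein-coding Nduf genes, mostly accessory subunits but with Ndufa4 and Ndufa4l2 among them, had -0.15. Ndufs1, the largest subunit, was the 1 core gene on the higher side, with 51.0 in mutant and 47.5 in control molars in the authors' deposited table (log2 ratio 0.10, adjusted p = 0.417). With the trend subtracted, the log2 ratio of Ndufs1 turned to -0.04. Ndufa5 stood at 24.1 in mutant and 23.7 in control molars by the authors' deposited table. Ndufa4, now counted with complex IV, had 82.7 in mutant and 84.0 in control molars in the authors' deposited table, and its relative Ndufa4l2, a target of hypoxia signalling, had 8.03 in mutant and 7.74 in control molars (adjusted p = 0.821).

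Complex II, succinate dehydrogenase, is wholly nuclear and also works in the citrate cycle. The median log2 ratio of its 4 genes was -0.05, the nearest to 0 of the nuclear complexes on the authors' scale but, at 0.09, the farthest with means divided by their sum. It was 0.01 with the trend on GC content and length subtracted. The flavoprotein gene Sdha had 137.8 in mutant and 128.7 in control molars in the authors' deposited table (log2 ratio 0.10, adjusted p = 0.478), the highest ratio of the 4. The iron-sulphur subunit gene Sdhb had 67.2 in mutant and 73.4 in control molars by the authors' deposited table (log2 ratio -0.13, adjusted p = 0.448), the lowest. The membrane anchors were Sdhc, at 93.9 in mutant and 96.7 in control molars in the authors' deposited table, and Sdhd, at 63.0 in mutant and 65.1 in control molars. The log2 ratio of Sdhd turned from -0.05 to 0.03 with the trend subtracted. The summed level of the complex was 361.9 in mutant and 363.9 in control molars.

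Nuclear genes of complex III, the cytochrome bc1 complex, numbered 8, of which 7 had lower means in the mutant (median log2 ratio -0.16, but -0.03 with means divided by their sum and -0.06 with the trend subtracted). The hinge protein gene Uqcrh had 112.4 in mutant and 131.2 in control molars in the authors' deposited table (log2 ratio -0.22, adjusted p = 0.135). The small subunits Uqcr11 and Uqcrq had log2 ratios of -0.23 and -0.19. Uqcr11 had 62.0 in mutant and 72.9 in control molars by the authors' deposited table. Uqcrq had 71.3 in mutant and 81.6 in control molars in the authors' deposited table. The core-type subunit Uqcrc1 stood at 138.4 in mutant and 151.9 in control molars in the authors' deposited table (log2 ratio -0.13, adjusted p = 0.347). Uqcrb was the 1 gene with a higher mean, 47.7 in mutant and 46.7 in control molars by the authors' deposited table (adjusted p = 0.873). With the trend subtracted, the log2 ratios of Uqcr11 and Uqcrb both turned, to 0.03 and -0.05.

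Complex IV had 16 nuclear genes, of which 14 had lower means in the mutant (median log2 ratio -0.18, but -0.04 with means divided by their sum and -0.05 with the trend subtracted). The 2 members nearest to the threshold belonged here. Cox7a2l (chr17:83501918-83517330, GRCm38) had 151.9 in mutant and 187.6 in control molars in the authors' deposited table (log2 ratio -0.31, adjusted p = 0.0646). Cox6b2 (chr7:4751792-4753094), the testis form of subunit 6B, had 7.27 in mutant and 10.3 in control molars in the authors' deposited table (log2 ratio -0.50, adjusted p = 0.0661). Under the trend on GC content and length, the adjusted p became 0.180 for Cox7a2l and 0.278 for Cox6b2 against the authors' values above. Cox6a1, the common form of subunit 6A, had 136.5 in mutant and 159.6 in control molars in the authors' deposited table (log2 ratio -0.23, adjusted p = 0.114).

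Several subunits of complex IV come in tissue forms. The 4 common forms Cox4i1, Cox6a1, Cox6b1 and Cox7a2 all had lower means, with log2 ratios between -0.23 and -0.13, although these became 0.14 higher with means divided by their sum, which turned Cox6b1. With the GC and length trend subtracted, their median log2 ratio was -0.0043 and both Cox6a1 and Cox6b1 turned, to 0.03 and 0.04. Cox4i1 stood at 201.0 in mutant and 227.8 in control molars by the authors' deposited table. Cox6b1 stood at 98.7 in mutant and 107.8 in control molars in the authors' deposited table, and Cox7a2 at 50.2 in mutant and 59.0 in control molars. The heart and skeletal muscle forms were near or under a mean of 1, with Cox6a2 at 0.233 in mutant and 0.335 in control molars in the authors' deposited table and Cox7a1 at 1.09 in mutant and 1.16 in control molars. All 11 skeletal muscle markers measured had lower means, summing to 4.59 in mutant and 8.45 in control molars, with none at 0. Cox4i2, a form known from lung and from hypoxic cells, had 45.0 in mutant and 43.7 in control molars by the authors' deposited table (adjusted p = 0.906). It is also known from pericytes, whose 7 markers summed to 654.9 in mutant and 561.7 in control molars, with 6 higher, 1 lower and none called. The part of these cells in the isoform values was not tested. Cox8a had 132.8 in mutant and 154.9 in control molars in the authors' deposited table, and Cox7b, on the higher side, 62.1 in mutant and 59.9 in control molars. With the trend subtracted, the log2 ratio of Cox8a turned from -0.22 to 0.04 and that of Cox7b from 0.05 to -0.01. Cox7a1 turned as well, from -0.08 to 0.14.

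ATP synthase had 17 nuclear genes, of which 14 had lower means in the mutant (median log2 ratio -0.12, but 0.01 with means divided by their sum and -0.08 with the trend subtracted). All 5 subunits of the catalytic F1 head were lower, with a median of -0.12 before the 0.14 that division by the sums adds. The beta subunit gene Atp5b, which carries the catalytic sites, had 627.3 in mutant and 667.5 in control molars in the authors' deposited table (log2 ratio -0.09, adjusted p = 0.581). The delta subunit gene Atp5d had 189.9 in mutant and 222.6 in control molars by the authors' deposited table (log2 ratio -0.23, adjusted p = 0.112). The membrane ring of c subunits is encoded by 3 genes for the same mature protein. Of these Atp5g1 had 86.6 in mutant and 104.8 in control molars in the authors' deposited table (log2 ratio -0.28, adjusted p = 0.115), and Atp5g2 had 82.3 in mutant and 95.0 in control molars (log2 ratio -0.21, adjusted p = 0.123). Atp5g3 differed less, at 154.9 in mutant and 160.1 in control molars in the authors' deposited table (log2 ratio -0.05, adjusted p = 0.762). Genes with higher means were Atp5f1, Atp5k and Atp5s, with log2 ratios of 0.01, 0.04 and 0.23. With the trend subtracted, that of Atp5f1 turned to -0.13. Atp5s had 3.24 in mutant and 2.76 in control molars by the authors' deposited table and encodes a coupling factor rather than a part of the core enzyme.

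Of the 86 nuclear genes, 81 are protein-coding in GENCODE M21, and 75 differed from the control by less than 1.2-fold. Cox6c2, Ndufs6b, Ndufa11b and Ndufb4c are processed pseudogenes, and Ndufb1-ps is annotated as a lncRNA. Cox6c2 had the lowest ratio of all members, at 0.129 in mutant and 0.291 in control molars in the authors' deposited table (log2 ratio -1.17, adjusted p = 0.189). Among nuclear members 13 had a near-identical copy in the table, such as Atp5g2, whose identical copy Gm10175 had 32.6 in mutant and 40.6 in control molars in the authors' deposited table. Ndufb4c, identical to Ndufb4 over 390 bases, had 33.4 in mutant and 34.1 in control molars in the authors' deposited table, and Ndufb4 itself 14.7 in mutant and 14.5 in control molars. Adding copies moved nuclear log2 ratios by at most 0.095, for Ndufs5. Exons of 20 nuclear members overlapped another gene of the table, 19 of them on the opposite strand, and the counting is not stated to use strand. The longest shared stretches were 504 bases between Uqcrc2 and Pdzd9 and 375 bases between Ndufa13 and Tssk6.

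Promoters were examined for the motifs of factors known to drive nuclear respiratory genes in mammals: NRF1, the ETS-type factor GABP and YY1. RefSeq promoter windows (GRCm38.p6, 250 bases before to 50 after the start) were matched by symbol for 64 of the 86 nuclear members and for 12057 genes of the table. On either strand, the NRF1 half-site GCATGCGC stood in promoters of 10 of the 64 members (15.6%) and of 5.32% of the 12057 genes. The ETS motif CCGGAAG stood in 16 of the 64 (25%) and in 17.9% of the genes, and the YY1 motif AAGATGGC in 9 of the 64 (14.1%) and in 4.70% of the genes. The 29 members with any of the 3 motifs had a median log2 ratio of -0.15 and the 35 with none -0.13. A match is only a stretch of letters, and no test was made. From 4 of the complexes, 1 promoter is shown among the 3 lower genes with the lowest p-values and a window, picked after its motifs were seen. Of the genes not shown from these complexes, Ndufv3, Ndufa13, Uqcr10, Cox7a2l, Cox6b2, Atp5d and Atp5g1 held none of the motifs. Uqcrh held the ETS motif. Capitals mark the motifs, in Cox6a1 and Atp5g2 an NRF1 half-site on both strands at once.
Ndufb7 (chr8:83566508-83566807, plus strand): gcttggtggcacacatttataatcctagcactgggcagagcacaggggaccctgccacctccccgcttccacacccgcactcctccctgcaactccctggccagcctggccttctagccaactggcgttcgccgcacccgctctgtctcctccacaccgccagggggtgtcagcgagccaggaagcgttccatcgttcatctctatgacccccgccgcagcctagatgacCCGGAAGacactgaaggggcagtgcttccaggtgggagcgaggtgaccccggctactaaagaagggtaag
Uqcr11 (chr10:80406772-80407071, minus strand): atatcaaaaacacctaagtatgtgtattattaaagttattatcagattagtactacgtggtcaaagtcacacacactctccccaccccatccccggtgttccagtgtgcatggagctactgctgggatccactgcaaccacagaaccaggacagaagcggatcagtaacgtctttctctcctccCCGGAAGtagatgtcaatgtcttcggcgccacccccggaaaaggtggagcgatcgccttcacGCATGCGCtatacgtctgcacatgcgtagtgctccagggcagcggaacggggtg
Cox6a1 (chr5:115348909-115349208, minus strand): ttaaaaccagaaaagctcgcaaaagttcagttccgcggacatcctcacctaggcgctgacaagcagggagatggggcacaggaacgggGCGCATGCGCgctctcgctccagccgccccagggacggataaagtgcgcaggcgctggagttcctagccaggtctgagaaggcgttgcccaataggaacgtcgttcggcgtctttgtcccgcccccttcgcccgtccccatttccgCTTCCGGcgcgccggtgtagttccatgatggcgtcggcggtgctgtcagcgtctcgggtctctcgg
Atp5g2 (chr15:102670998-102671297, minus strand): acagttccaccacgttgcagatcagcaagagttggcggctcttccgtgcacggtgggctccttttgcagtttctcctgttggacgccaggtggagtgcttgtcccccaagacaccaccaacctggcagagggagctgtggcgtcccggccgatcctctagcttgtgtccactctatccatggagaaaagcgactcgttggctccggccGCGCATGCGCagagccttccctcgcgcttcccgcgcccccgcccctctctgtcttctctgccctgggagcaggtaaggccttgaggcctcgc

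Genes that build or regulate the chain were described from lists chosen with earlier results of these data known. None of their members was called. The 16 measured genes of mitochondrial transcription and RNA processing had a median log2 ratio of 0.02, with 9 higher and 7 lower means. Among them Lrpprc, which stabilises mitochondrial mRNAs, had 30.7 in mutant and 24.2 in control molars in the authors' deposited table (log2 ratio 0.34, adjusted p = 0.113), and the transcription factor Tfb2m 15.8 in mutant and 13.7 in control molars (adjusted p = 0.238). The 9 genes of mitochondrial DNA replication had a median of 0.08, with the ribonucleotide reductase gene Rrm2b at 9.66 in mutant and 8.46 in control molars and the polymerase gene Polg at 30.6 in mutant and 26.7 in control molars by the authors' deposited table. The 11 regulators of mitochondrial biogenesis had a median of 0.02. The coactivator gene Pprc1 had 34.4 in mutant and 42.6 in control molars in the authors' deposited table (log2 ratio -0.31, adjusted p = 0.0900), and Gabpa, a subunit of GABP, 47.8 in mutant and 41.9 in control molars (adjusted p = 0.191). With the GC and length trend subtracted, the log2 ratio of Pprc1 was -0.24, that of Gabpa went from 0.19 to 0.01, and that of Rrm2b turned from 0.19 to -0.04.

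Assembly factors help subunits and cofactors into each complex. Of 15 measured complex I assembly factors 8 had lower means (median log2 ratio -0.01), of 10 factors for complexes II and III 5 (median -0.02), and of 19 for complex IV 14 (median -0.08). Ttc19, needed for complex III, had 13.2 in mutant and 9.92 in control molars in the authors' deposited table (log2 ratio 0.41, adjusted p = 0.0698), and Acad9, needed for complex I, 23.1 in mutant and 18.1 in control molars (log2 ratio 0.35, adjusted p = 0.106). On the list with Ttc19, Sdhaf1, a complex II factor, had 17.2 in mutant and 21.3 in control molars in the authors' deposited table (log2 ratio -0.31, adjusted p = 0.190). Ndufaf4, a complex I factor, had 7.38 in mutant and 5.95 in control molars in the authors' deposited table (log2 ratio 0.31, adjusted p = 0.206). Surf1, a complex IV factor, had 15.6 in mutant and 18.5 in control molars by the authors' deposited table (log2 ratio -0.24, adjusted p = 0.169), and Coa5, also for complex IV, 56.5 in mutant and 48.9 in control molars (log2 ratio 0.21, adjusted p = 0.202). The 17 genes of pyruvate dehydrogenase and the citrate cycle had a median log2 ratio of -0.0046, with 10 lower. On it Dld, a shared dehydrogenase subunit, had 56.5 in mutant and 48.1 in control molars in the authors' deposited table (log2 ratio 0.23, adjusted p = 0.136), and Mdh2, the malate dehydrogenase, 184.4 in mutant and 204.7 in control molars (log2 ratio -0.15, adjusted p = 0.234). Dividing means by their sum adds 0.14 to each of these log2 ratios. With the GC and length trend subtracted, the log2 ratio of Dld turned to -0.02 and that of Ndufaf4 became 0.07. No test of the difference between these lists and the subunits was made.

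**Figure D5:**
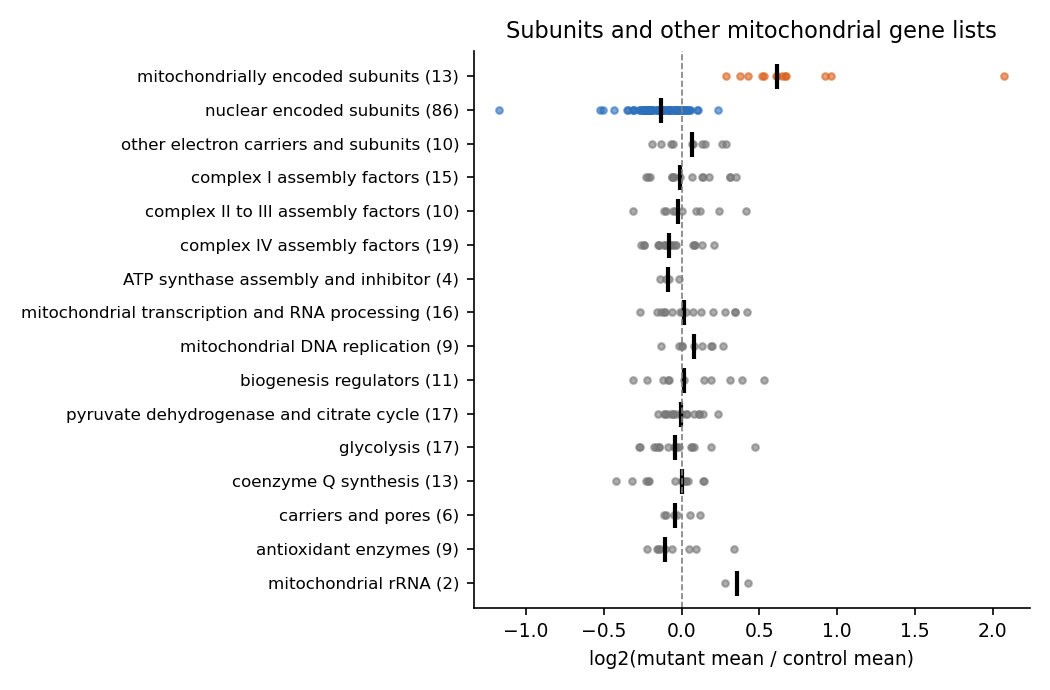
Log2 ratio of the mutant over the control mean for each gene of the 2 sets of subunits and of 14 other lists, with the number measured in brackets and a black bar at the median. The mitochondrially encoded subunits have a median of 0.61 and the mitochondrial rRNAs 0.35 (0.17 and -0.22 with the GC and length trend subtracted). The nuclear subunits have a median of -0.13 (0.00 with means divided by their sum), and the other lists lie between -0.11 and 0.08.

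Markers of other cell types were summed in the same way. The 7 ameloblast markers summed to 178088 in mutant and 262615 in control molars, with 6 of 7 lower. The 7 erythroid markers summed to 425.8 in mutant and 946.5 in control molars, with all 7 lower and Hba-a1 called, and the 6 osteoblast markers to 2714 in mutant and 4251 in control molars, with all 6 lower and Sp7 and Bglap called. The 5 odontoblast markers summed to 8627 in mutant and 8979.9 in control molars, with 4 lower, but made up 0.903% of the mutant total and 0.855% of the control total, so that their direction turned with means divided by their sum. Over all genes 0.788% were called. With the GC and length trend subtracted, Hba-a1, Sp7 and Bglap were still lower but no longer called. Their log2 ratios were then -1.05, -0.30 and -0.60. No measured marker was at 0. The part of these cells in the ratios of the respiratory genes was not tested. The Y-linked genes Ddx3y and Eif2s3y had higher means in the mutant, with log2 ratios of 0.99 and 0.73. Ddx3y was called in the authors' deposited table and Eif2s3y was not. The sex of the mice is not given in the sources used here, and its part in the ratios was not tested.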

How the data were processed

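RNA from the apical part of the first lower molars was sequenced as 4 mutant and 4 control libraries, and the members and gene lists were chosen with earlier results of these data known. The submitters' processing notes name STAR 2.6.1d, Partek and the mm10 build but no roles. Annotation, counting, normalisation, strand setting and any filter: not given in the sources used here. What the authors deposited was, per the file headers, a comparison of KO with WT, called mutant and control here: group means and a total as normalised signal, a ratio of the means, and a p-value and adjusted p for each gene. The total equals 4 times the sum of both means. The signed fold change, a score restating the ratio per the file headers, was read only to give fold sizes. Depth per library is unknown, and a count test was not possible.

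Log2 values were computed from the deposited ratio. No list test was made; sets are given as counts and medians beside all genes. Genes named are all mitochondrial members, all Sdh genes, tissue isoforms, and per complex and direction the 3 nuclear genes with the lowest p-values and that with the highest control mean; of other lists, up to 2 genes with the lowest p-values. One gene that this rule names is not reported here. Cox6c2, Ndufb4, Ndufb4c, Ndufs5, the pseudogene copies, the exon overlaps, Amelx, Ddx3y and Eif2s3y were picked after their values were seen. Symbols matched GENCODE M21 (GRCm38) for 17562 genes (99.6%). Copies were searched with BLAST 2.17.0. The GC and length trend was fitted with mgcv 1.9.3 (R 4.3.3) to log2 ratios and signed z, checked on simulated data. Alternatives were other thresholds, scalings, filters, a pseudocount of 1, and, added after the data were seen, sums with copies.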

Additional observations from a re-analysis of the deposited data

How the results depend on the processing

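No paired analysis was possible because the table holds no values per library; for the same reason leaving out single libraries and a test on counts were not run. Members called were 0 higher and 0 lower, also with genes under a mean of 1 left out and with the GC and length trend subtracted. Over all genes 139 were called, 168 of 14168 with low means left out and 22 of 17561 with the trend subtracted. An adjusted p under 0.10 gave 1 higher and 3 lower of the 99 members, against 641 of all 17631 genes in either direction. An unadjusted p under 0.05 gave 10 higher and 29 lower members, against 9.89% and 9.4% of all genes. Of 65 alternative median log2 ratios, 54 kept their direction and moved by less than 0.1, a tolerance near the size of the nuclear medians themselves. Dividing by the sum of all means took the median to 0.75 for mitochondrial genes and 0.0026 for nuclear genes, and to -0.0044, 0.092, -0.027, -0.041 and 0.013 for nuclear complexes I to V, so that nuclear genes as a whole and complexes II and V turned. It took the log2 ratio of summed means to 0.66 for mitochondrial and 0.0056 for nuclear genes, and to -0.0039, 0.13, -0.015, -0.033 and 0.019 for complexes I to V; without the 10 highest genes the complex II sum turned to 0.0017. These changes are the constant shift of the scale. Subtracting the GC and length trend gave medians of 0.17 for mitochondrial genes, -0.056 for nuclear genes against -0.13 before, and -0.058, 0.0082, -0.057, -0.047 and -0.077 for nuclear complexes I to V; at an unadjusted p under 0.05 it left 1 higher and 14 lower.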

Other observations

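Outside the chain itself, energy metabolism genes showed single differences and none was called. Of 17 glycolysis genes, 12 had lower means in the mutant (median log2 ratio -0.04). The glucose transporter gene Slc2a1 had 34.3 in mutant and 24.7 in control molars in the authors' deposited table (log2 ratio 0.47, adjusted p = 0.161), and Pgam1 256.7 in mutant and 310.4 in control molars (log2 ratio -0.27, adjusted p = 0.127). Of 9 antioxidant enzymes 6 had lower means (median log2 ratio -0.11, and 0.00 with the GC and length trend subtracted). The peroxisomal enzyme gene Cat had 59.6 in mutant and 47.3 in control molars in the authors' deposited table (log2 ratio 0.33, adjusted p = 0.0806), and the glutathione peroxidase gene Gpx1 126.4 in mutant and 147.3 in control molars (log2 ratio -0.22, adjusted p = 0.138).

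The 13 coenzyme Q synthesis genes had a median log2 ratio of 0.0026, and -0.09 with the GC and length trend subtracted. On this list Pdss1 had 1.53 in mutant and 2.05 in control molars in the authors' deposited table (adjusted p = 0.202), and Coq10a 5.21 in mutant and 6.49 in control molars (adjusted p = 0.204). The median was -0.04 over the 6 carriers and pores of the mitochondrial membranes, with Vdac3 at 57.1 in mutant and 52.6 in control molars in the authors' deposited table and Slc25a3 at 227.4 in mutant and 243.5 in control molars. Genes for other electron carriers and subunits had a median of 0.07 over 10 measured. Among these Etfb, a subunit of the electron transfer flavoprotein, had 38.4 in mutant and 43.8 in control molars in the authors' deposited table (adjusted p = 0.197), and Gpd2, the mitochondrial glycerol phosphate dehydrogenase, 14.5 in mutant and 12.1 in control molars (adjusted p = 0.208). The 4 ATP synthase assembly and inhibitor genes all had lower means, with a median of -0.09. Dividing means by their sum adds 0.14 to each of these log2 ratios, which turns the medians below 0. With the GC and length trend subtracted, the log2 ratio of Vdac3 turned from 0.12 to -0.07, and that of Etfb went from -0.19 to -0.01.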
